A study of Solanum lycopersicum with 21 samples.

Results

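MC with J2 was set against MC with TM3, as 2 lists of DNA regions bound in vitro. The MC-J2 list held 4677 peaks and the MC-TM3 list 11457, out of 52995 peaks in the lists of 6 complexes. Peaks of the 2 lists with 1 bp or more in common were taken as shared, and the other peaks were called J2-side or TM3-side after the list they stood in. This gave 3535 shared MC-J2 peaks, 1142 J2-side peaks and 7924 TM3-side peaks. Joined where they overlapped, the peaks of both lists made 12599 of the 26850 regions of the series (46.9%).

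Both lists came from DAP-seq, in which a protein made in a cell-free system is incubated with a library of naked genomic DNA and the bound fragments are pulled down and sequenced. MC, which carried a 3×FLAG tag in both complexes, was made in wheat germ extract together with untagged J2 or untagged TM3, and was pulled down with anti-FLAG beads. The DNA was from young leaves of wild-type tomato, cultivar Moneyberg and was free of its chromatin. The wheat germ extract stayed in the binding reaction. Each complex had 3 libraries, and 3 input libraries came from reactions without plasmid, but each complex was deposited as 1 list of peaks pooled over libraries. No spread between libraries could therefore be computed, no p-value is given, and all intervals cover counting error over peaks only.

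MC (MACROCALYX) is the tomato ortholog of APETALA1, a MADS-domain transcription factor of the inflorescence and floral meristems. MADS-domain proteins contact DNA as dimers or tetramers at CArG-boxes, short AT-rich elements, and MC does so together with another member of the family. J2 (JOINTLESS2) belongs to the SEPALLATA clade and acts in the maturation of the floral meristem. TM3 is related to SUPPRESSOR OF OVEREXPRESSION OF CONSTANS1 and promotes the floral transition. The pair of lists addresses where the same MADS protein is found on the genome with one partner or the other.

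The MC-J2 list lay largely within the MC-TM3 list. Of the MC-J2 peaks, 75.6% (95% Wilson interval 74.3–76.8%) were overlapped by an MC-TM3 peak, and of the MC-TM3 peaks 30.8% (30.0–31.7%) were overlapped by an MC-J2 peak, where the lengths of the lists allowed at most 40.8%. In 2 cases a single MC-TM3 peak held 2 MC-J2 peaks. The MC-J2 peaks covered 1.51 Mb and the MC-TM3 peaks 4.18 Mb, with 1.12 Mb in common, which was 74.6% of the MC-J2 bases and 26.9% of the MC-TM3 bases. 

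The depth behind the lists was unequal. The number of reads behind each peak was recovered from the fold and p of the peak caller. The treatment was 1.99 times as deep as the input for MC-J2 and 1.29 times as deep for MC-TM3. The median summit held 111 reads in MC-J2 and 77 reads in MC-TM3, or 55.8 and 59.5 reads after scaling to the input. At the common background of each list, which 44.1% of the solved MC-J2 peaks and 41.5% of the solved MC-TM3 peaks had, the lowest called summit was 33.7 scaled reads in MC-J2 and 31.7 in MC-TM3. The names of the merged alignments point to different merging tools for the 2 complexes. The part of depth and of merging in the list lengths was not tested.

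Sharing increased with strength in both lists, but the lists differed in how far up unshared peaks were found. Strength was read as the −log10 q of a peak and ranked within its own list, from percentile 0 (weakest) to 100 (strongest), because depths and lengths differed between lists. In the MC-J2 list, between 62.0% and 66.5% of the peaks in each of the 5 weakest deciles were shared. The share then was 77.6%, 80.2%, 86.0%, 92.6% and 97.3% in the next 5 deciles. In the MC-TM3 list, the share was 5.95% in the weakest decile, 24.1% in the fifth, 55.4% in the ninth and 70.9% in the strongest.

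**Figure D1:**
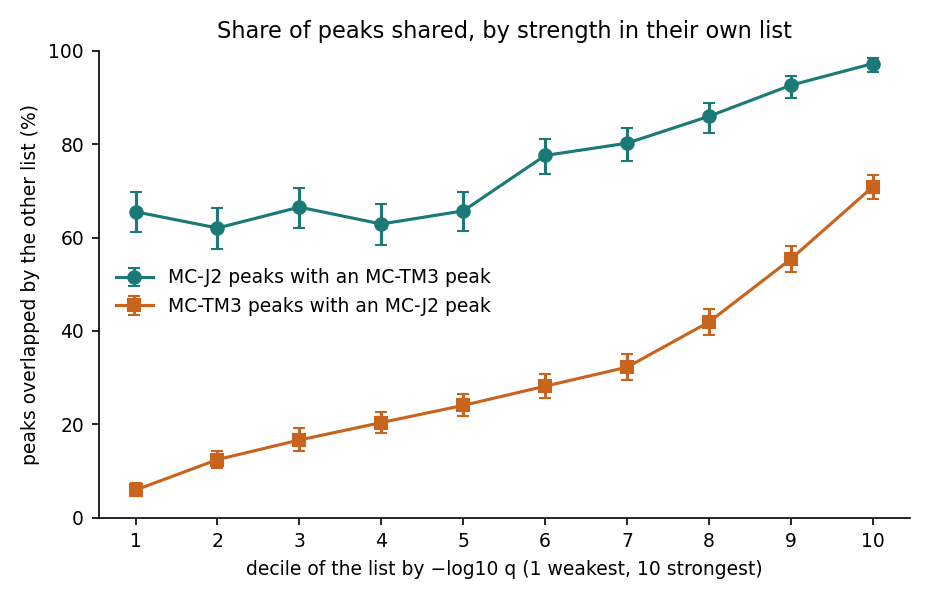
Percent of peaks overlapped by the other list, for each decile of the MC-J2 list (circles) and of the MC-TM3 list (squares) by −log10 q, with 95% Wilson intervals over peaks. The MC-J2 share stays between 62.0% and 66.5% in the 5 weakest deciles and reaches 97.3%, and the MC-TM3 share goes up over all deciles, from 5.95% to 70.9%.

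The strong end of the MC-J2 list was nearly contained in the MC-TM3 list. Among the strongest 10% of MC-J2 peaks, 461 of 474 were shared and 13 were not, and all 47 peaks of the strongest 1% were shared. Among the strongest 10% of MC-TM3 peaks, 813 of 1147 were shared and 334 were not, and of the strongest 1%, 100 of 115 were shared. Ranked by fold enrichment instead, the strongest decile was shared to 96.0% in MC-J2 and 71.3% in MC-TM3.

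The order of strength was looser than the overlap. Of the 100 strongest MC-J2 peaks, 41 were found among the 100 strongest MC-TM3 peaks, 63 among the strongest 500, 76 among the strongest 1000, 93 among the strongest 2000 and 99 in the whole list. When the MC-TM3 list was cut to its 4677 strongest peaks, so that both lists were equally long, 49.6% (48.2–51.1%) of the MC-J2 peaks were shared. The 75.6% above therefore rested in part on MC-TM3 peaks of lower rank.

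Shared peaks ranked above unshared ones in both lists. Within the MC-J2 list, the median percentile was 34.3 for J2-side peaks (binomial interval 31.2–36.1) and 57.3 (55.4–58.9) for shared peaks. In the MC-TM3 list, TM3-side peaks had a median percentile of 40.6 (39.3–40.6) and shared peaks 73.9 (73.1–75.3). A shared peak outranked an unshared one with a probability of 0.681 in the MC-J2 list and 0.750 in the MC-TM3 list, and on the 12 single chromosomes with 0.646 to 0.739 and 0.707 to 0.799. The median fold enrichment over the local background was 4.19 at J2-side peaks, 4.50 at shared MC-J2 peaks, 4.83 at shared MC-TM3 peaks and 3.93 at TM3-side peaks.

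The unshared classes also differed in background and width. Of the solved J2-side peaks, 59.3% sat at the common background of the list and 1.68% at a local background of 20 input reads or more. Of the solved TM3-side peaks, 41.9% sat at the common background and 10.8% at 20 reads or more. Among shared peaks, 39.2% in the MC-J2 list and 40.5% in the MC-TM3 list sat at the common background, and 3.28% and 5.21% in the same order at 20 reads or more. Solved were 98.9% of the J2-side, 98.4% of the shared and 88.3% of the TM3-side peaks, and the 930 unsolved TM3-side peaks are missing from these shares. A fold below 2 was found at none of the J2-side peaks and at 97 TM3-side peaks. The median width was 281 bp at J2-side peaks, 322 bp at shared MC-J2 peaks, 366 bp at shared MC-TM3 peaks and 323 bp at TM3-side peaks. The shortest peaks were 252 bp in MC-J2 and 268 bp in MC-TM3, so that the lowest widths of the lists already differed by 16 bp.

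Few unshared peaks lay close to a peak of the other list. The nearest MC-TM3 peak lay a median of 25.6 kb from a J2-side peak, and the nearest MC-J2 peak a median of 66.0 kb from a TM3-side peak. These medians also reflect the number of peaks in the list searched, 11457 for MC-TM3 and 4677 for MC-J2. No comparison with random positions was made. Only 1 peak of each class lay within 100 bp of the other list, and 40 J2-side and 98 TM3-side peaks lay within 1 kb.

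Summits of shared peaks lay close together, with 56.3% of pairs within 20 bp and 2.12% at the same base. The summits were a median of 17 bp apart (quartiles 8 and 33 bp), 87.4% lay within 50 bp and 96.6% within 100 bp of each other. The signed distance, MC-J2 minus MC-TM3, had a median of 1 bp, and was above 0 in 1771 pairs and below 0 in 1689. The stronger the pair, the closer the summits were: the median distance was 23, 18, 16 and 13 bp in the 4 quartile groups by mean percentile, weakest first. The 119 pairs with summits over 100 bp apart were of low rank in MC-J2 (median percentile 22.4, against 48.6 in MC-TM3) and had broader MC-TM3 peaks (345 bp in MC-J2 and 459 bp in MC-TM3).

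**Figure D2:**
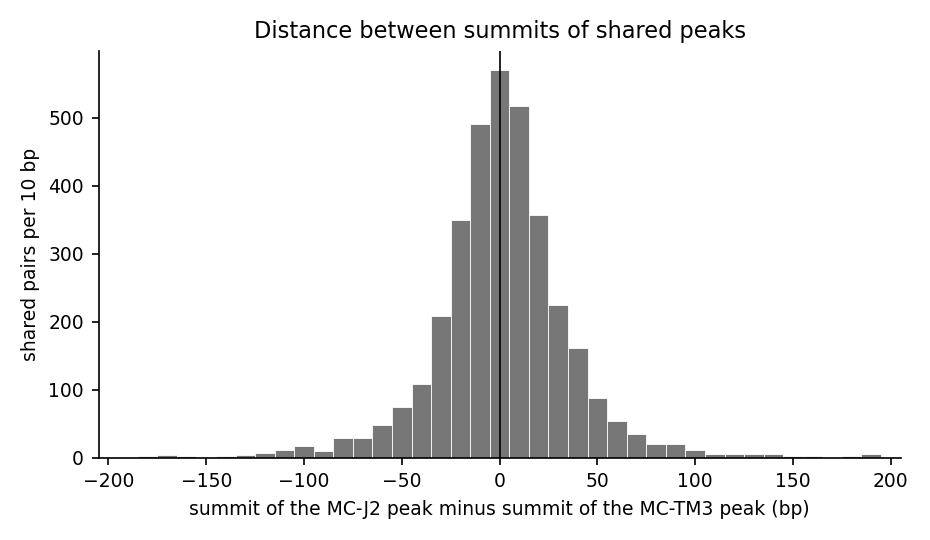
Number of shared pairs per 10 bp of signed distance between the MC-J2 and the MC-TM3 summit, along the chromosome. The counts centre on 0 with a median of 1 bp, and 37 pairs beyond the ends of the axis are not drawn.

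The MC-J2 peak was the narrower one in 2725 of the 3535 pairs (77.1%), by a median of 41 bp, and lay wholly inside the MC-TM3 peak in 53.5% of pairs, against 10.2% the other way round. The median start was 20 bp further in and the median end 19 bp further in for MC-J2, so the difference was nearly symmetric. The shortest peaks of the lists already differed by 16 bp (252 bp in MC-J2 and 268 bp in MC-TM3). The part of this in the widths and in the containment was not tested. The smallest overlap of any pair was 101 bp, and 98.3% of pairs overlapped by at least 50% of both peaks.

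Strength at shared sites was correlated but far from identical. Both lists were called against input and were measured on the same DNA, so part of any correlation across peaks is common to them. Spearman's rank correlation across the 3535 pairs was 0.516 for −log10 q and 0.554 for the fold, and for the fold between 0.490 and 0.641 on single chromosomes. Pearson's correlation of the log2 fold was 0.61. The local backgrounds of the 3436 pairs solved in both lists correlated at 0.879. Among the 1275 pairs at the common background of both lists, where the background cannot vary, the pileups correlated at 0.4501, against 0.639 over all solved pairs.

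**Figure D3:**
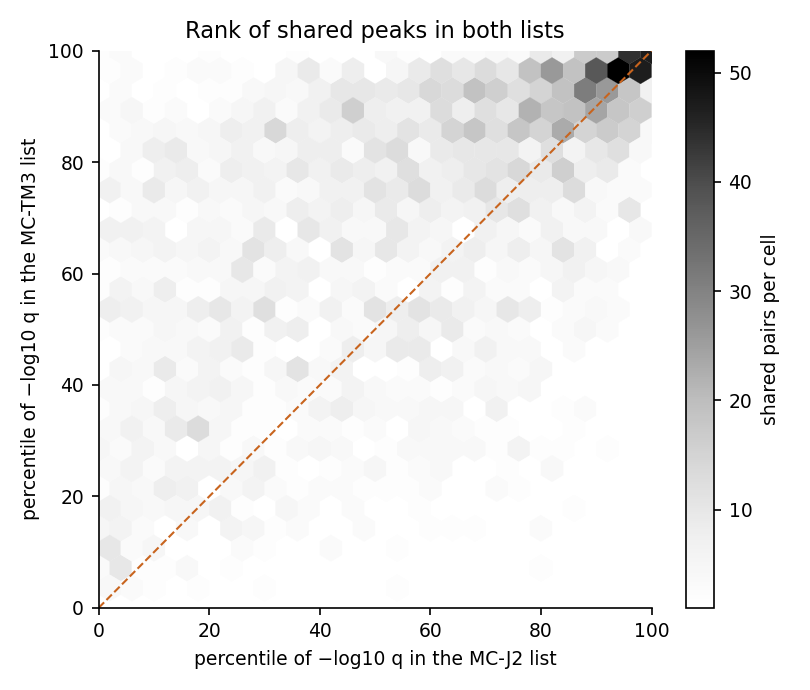
Percentile of −log10 q in the MC-J2 list (x axis) and in the MC-TM3 list (y axis) for the 3535 shared pairs, with darker cells holding more pairs and equal percentiles on the dashed line. Pairs crowd at the top right, and 68.7% have the higher percentile in MC-TM3.

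The MC-TM3 peak held the higher percentile in 2429 pairs (68.7%), and the median difference, MC-J2 minus MC-TM3, was −10.1 percentile points. Percentiles in lists of unequal length are not on one scale, so the pileups were compared as well. After scaling to the input, the MC-J2 pileup was lower in 2598 of 3436 pairs (75.6%), with a median ratio of MC-J2 to MC-TM3 of 0.876 (quartiles 0.765 and 0.997) and of 0.915 where both were at the common background. The MC-J2 pileup was over 1.5 times the MC-TM3 pileup in 7 pairs, and the MC-TM3 pileup was over 1.5 times the MC-J2 pileup in 311. The fold, which is taken over the local background, had a median ratio of MC-J2 to MC-TM3 of 0.929 over the 3535 pairs. Without values per library, the spread behind such a ratio at 1 site is unknown.

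A minority of pairs differed widely in rank between the lists, mostly with the higher percentile in MC-TM3. Shared peaks as a group stood higher in the MC-TM3 list (median percentile 73.9) than in the MC-J2 list (57.3), which enters these differences. The percentiles were 50 points or more apart in 423 pairs, with MC-J2 higher in 47 and MC-TM3 higher in 376. In 301 pairs both peaks were in the strongest 10% of their lists. In 16 pairs the MC-J2 peak was in the strongest 25% of its list and the MC-TM3 peak in the weakest 25%, and in 166 pairs it was the reverse. Shared MC-J2 peaks of the weakest decile had a median percentile of 44.7 in the MC-TM3 list, and those of the strongest decile 94.5. Shared MC-TM3 peaks of the weakest decile had a median percentile of 13.9 in the MC-J2 list, and those of the strongest decile 84.0.

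Regions were then taken one by one, in coordinates of the Moneyberg genome that the files use. The strongest shared pair was chr1:69878589-69879056 in MC-J2, with a −log10 q of 83.5 in MC-J2 and 90.4 in MC-TM3. Its folds were 8.23 and 8.32, and its summits lay 20 bp apart. The summits held 324 and 220 reads in the same order, or 162.8 and 170.1 after scaling to the input. The pair lay 2084 bp downstream of a gene start, in the promoter class of the study's annotation. The next were chr12:33836676-33837105, with a −log10 q of 68.5 in MC-J2 and 91.3 in MC-TM3, and chr8:15955804-15956221, with folds of 11.3 and 11.1 in the same order and summits 5 bp apart. A peak at all 3 pairs was also called for each of the other 4 complexes.

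The strongest J2-side peak was chr1:89581782-89582174, with a −log10 q of 40.6 and a percentile of 98.0, and the nearest MC-TM3 peak 1.13 kb away. It was called for FUL2-J2, FUL2-TM3 and MC-J. The next were chr2:15743048-15743413, with a −log10 q of 35.5 and a distal intergenic position, and chr4:36808928-36809306, with a −log10 q of 34.1, which among the other lists was in FUL2-J2 alone.

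The strongest TM3-side peaks away from chromosome ends ranked higher in their list than any J2-side peak did in its own. chr1:11488254-11488696 had a −log10 q of 86.9, a fold of 9.06 and a percentile of 99.9, with no MC-J2 peak for 479 kb, and was called for every FUL2 complex but not for MC-J. chr9:11148471-11148872 had a −log10 q of 68.5 and was in all 4 other lists, and chr1:34978487-34978886 had a −log10 q of 65.9 and was in FUL2-J and FUL2-TM3. Both TM3-side peaks on chromosome 1 were distal intergenic.

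The shared pairs that differed most in rank were also read. At chr7:65361451-65361803 the MC-J2 peak had a percentile of 91.0 and a fold of 6.31, against a percentile of 11.5 and a fold of 3.55 in MC-TM3. At chr1:16133897-16134266 the percentiles were 80.4 in MC-J2 and 5.68 in MC-TM3. In the other direction, chr11:48090193-48090511 had a percentile of 0.278 and a fold of 2.51 in MC-J2, against 98.5 and 7.29 in MC-TM3. At chr1:24506155-24506427 the percentiles were 1.957 in MC-J2 and 99.7 in MC-TM3. The reads were 91 in MC-J2 and 164 in MC-TM3, or 45.7 and 126.8 after scaling to the input. This site lay 1046 bp downstream of a gene start, in the promoter class of the study's annotation.

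Nearest genes were known only where a peak overlapped an annotated FUL2-J peak, which selects sites that FUL2-J also had. Of 42 such J2-side peaks on chromosome 1, 12 had their summit within 5 kb of a gene start. There, 61 of 307 shared peaks and 51 of 243 TM3-side peaks had theirs within this distance. The strongest of these J2-side peaks lay 2546 bp downstream of the start of Solyc01g097860, in its promoter class, which was given on both sides of a gene start. The next lay in an intron, 4614 bp downstream of the start of Solyc01g067480. Both, and the third at chr1:75227394-75227697, were in the FUL2-J2 list and not in the FUL2-TM3 list. The strongest of the TM3-side peaks lay at −926 bp from the start of Solyc01g017970, upstream of it, and the next 3733 bp downstream of the start of Solyc01g161670. Both of these were in the FUL2-TM3 list and not in the FUL2-J2 list, while the third, chr1:89813687-89814081, was in neither of these lists but in FUL2-J and MC-J. The roles of these genes are not given in the sources used here.

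The partner-specific classes of MC were read in the lists of FUL2, the paralog of MC, with the same partners, which did not enter the classes but were called against input too. Of the J2-side peaks, 52.8% (49.9–55.7%) had a FUL2-J2 peak and 6.30% (5.04–7.87%) a FUL2-TM3 peak, where the shares over all MC-J2 peaks were 75.8% and 39.5%. Of the TM3-side peaks, 10.9% (10.2–11.6%) had a FUL2-J2 peak and 40.01% (38.9–41.1%) a FUL2-TM3 peak, where the shares over all MC-TM3 peaks were 33.2% and 43.2%. Shared peaks were in FUL2-J2 to 83.2% and in FUL2-TM3 to 50.3%. Each unshared class overlapped the FUL2 list of its own partner more often than that of the other partner. The whole MC-J2 and MC-TM3 lists showed the same order, and shared peaks were more often in FUL2-J2. For its own partner, each unshared class lay below the share over all peaks of its list. With the chromosome ends left out, 29.6% of the TM3-side peaks had a FUL2-TM3 peak and 12.7% a FUL2-J2 peak.

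The shares of peaks in only 1 of the FUL2 lists were read next. Leaving out peaks in both FUL2 lists lowers both shares of a class equally, so the order within a class could not change. A peak in FUL2-J2 and not in FUL2-TM3 was found at 48.5% of the J2-side peaks and 6.26% of the TM3-side peaks. Shared peaks had one at 37.7% in the MC-J2 list and 37.6% in the MC-TM3 list. A peak in FUL2-TM3 and not in FUL2-J2 was found at 2.01% of the J2-side and 35.4% of the TM3-side peaks. For shared peaks this was 4.75% in the MC-J2 list and 4.73% in the MC-TM3 list. With the chromosome ends left out, the J2-side and TM3-side shares were 48.7% and 7.37% for FUL2-J2 alone and 1.957% and 24.2% for FUL2-TM3 alone.

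**Figure D4:**
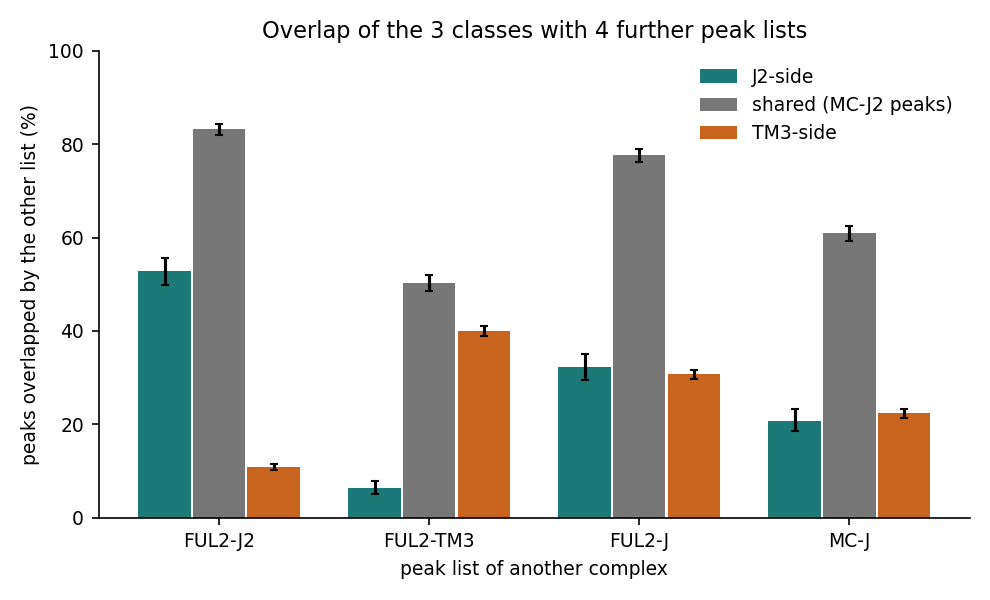
Percent of J2-side, shared and TM3-side peaks overlapped by a peak of FUL2-J2, FUL2-TM3, FUL2-J or MC-J, with 95% Wilson intervals over peaks. J2-side peaks overlap FUL2-J2 (52.8%) far more often than FUL2-TM3 (6.30%), and TM3-side peaks the reverse (10.9% and 40.01%). Shared peaks overlap FUL2-J2 at 83.2% and FUL2-TM3 at 50.3%. The J lists lie at 32.2% and 30.7% (FUL2-J) and 20.8% and 22.3% (MC-J) of the J2-side and TM3-side peaks.

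With J, a factor of the inflorescence meristem, as partner, the comparison of the unshared classes depended on the chromosome ends. FUL2-J peaks were found at 32.2% (29.6–35.0%) of the J2-side peaks and 30.7% (29.7–31.7%) of the TM3-side peaks, and MC-J peaks at 20.8% (18.5–23.2%) and 22.3% (21.4–23.3%). With the ends left out, FUL2-J peaks were found at 32.2% (29.5–35.0%) of the J2-side and 35.4% (34.2–36.6%) of the TM3-side peaks, and MC-J peaks at 20.7% (18.5–23.2%) and 26.2% (25.2–27.3%). The share of TM3-side peaks with a FUL2-J peak was then above that with a FUL2-TM3 peak, which was 29.6% (28.5–30.7%). Near the ends, 7.96% of the TM3-side peaks had a FUL2-J peak and 3.54% an MC-J peak. Over all peaks these shares were 66.5% and 51.1% in the MC-J2 list and 45.2% and 34.2% in the MC-TM3 list. The shared peaks had 77.6% and 60.9%. All 4 further lists held 36.5% of the shared peaks, 1.40% of the J2-side and 2.46% of the TM3-side peaks, and none of them held 33.6% of the J2-side, 5.69% of the shared and 37.3% of the TM3-side peaks.

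The classes also differed among peaks of similar rank. Among the peaks in the weakest 25% of the MC-J2 list, 37.7% of the 414 J2-side peaks and 65.8% of the 752 shared peaks had a FUL2-J2 peak, and 6.52% and 41.1% had a FUL2-TM3 peak. Of the 13 J2-side peaks in the strongest 10% of the MC-J2 list, 12 had a FUL2-J2 peak and 1 a FUL2-TM3 peak. Of the 461 shared peaks of the same rank, 460 had a FUL2-J2 peak and 361 (78.3%) a FUL2-TM3 peak. Of the 334 TM3-side peaks in the strongest 10% of the MC-TM3 list, 98 (29.3%) had a FUL2-J2 peak, 261 (78.1%) a FUL2-TM3 peak, 228 (68.3%) a FUL2-J peak and 28 none of the 4 kinds. The 813 shared peaks of the same rank had a FUL2-J2 peak at 95.2%, a FUL2-TM3 peak at 85.2% and a FUL2-J peak at 95.4%. Where a J2-side peak met a FUL2-J2 peak, that peak had a median percentile of 44.0 in its own list, and 64.8 where the MC peak was shared.

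Position on the chromosome separated the TM3-side peaks from the others. Within 1 Mb of a chromosome end, in 2.91% of the sequence, lay 18 (1.58%) of the J2-side peaks, 60 (1.70%) of the shared peaks and 1357 (17.1%, 16.3–17.97%) of the TM3-side peaks. The ends were taken at the first base and at the last peak of any list. There were 3.25 MC-J2 peaks and 59.0 MC-TM3 peaks per Mb there.

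**Figure D5:**
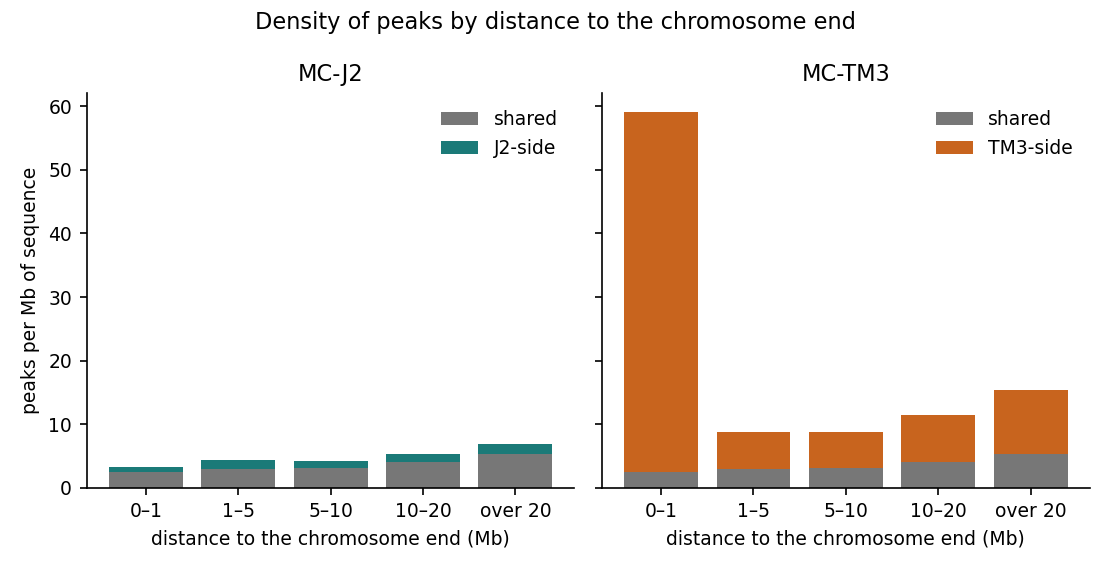
Peaks per Mb of sequence by distance to the chromosome end in the MC-J2 list (left) and in the MC-TM3 list (right), split into shared and unshared peaks. Shared peaks have the same low density in the outermost Mb of both panels (2.50 per Mb), where the MC-TM3 list holds 56.5 TM3-side peaks per Mb and the MC-J2 list 0.75 J2-side peaks per Mb.

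The MC-TM3 peaks near the ends were weak and mostly unshared. Of 1417 such peaks, 4.23% were shared, against 34.6% to 35.2% in the other distance classes, and they had a median percentile of 17.5, a median fold of 2.89 and a median local background of 19 input reads. The 78 MC-J2 peaks near the ends were shared to 76.9%, and those farther in to between 68.3% and 77.9%. The 24 ends were unequal, with 0 to 10 MC-J2 peaks and 11 to 215 MC-TM3 peaks (median 43). The start of chromosome 5 had 1 MC-J2 peak and 215 MC-TM3 peaks, and the end of chromosome 8 had 1 and 157. Of the TM3-side peaks near the ends, 26 had a FUL2-J2 peak and 1226 (90.3%) a FUL2-TM3 peak. The FUL2-TM3 list itself was densest there, with 4918 of its 10654 peaks (46.2%) near the ends, against 12.4% of the MC-TM3 peaks, 1.67% of the MC-J2 peaks and 1.74% to 2.03% of the peaks of the other 3 lists. The strongest TM3-side peaks near the ends were chr2:781931-782419, with a −log10 q of 57.4, and chr6:52131288-52131811, with 52.9. The part of the raised local background in these peaks was not tested.

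Between chromosomes the MC-J2 share varied little. From 71.1% (chromosome 8) to 79.4% (chromosome 6) of the MC-J2 peaks were shared, and from 26.2% (chromosome 5) to 35.7% (chromosome 2) of the MC-TM3 peaks, or 32.5% to 36.7% with the ends left out. On unplaced sequence all 13 MC-J2 peaks were shared and 13 of the 108 MC-TM3 peaks.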

How the data were processed

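DAP-seq libraries of 21 samples (3 for each of 6 complexes and 3 input) were deposited as 1 peak list per complex. The authors used Trim Galore for trimming, HISAT2 for alignment to the genome of Moneyberg and, after merging the alignments of a complex, MACS2 for peak calling at a threshold of 0.0001. Versions are not given in the sources used here. Each deposited list holds a fold enrichment over local background (a ratio), a −log10 p-value, a −log10 q-value and a summit as the authors' peak caller wrote them. The names of the merged alignments refer to 2 input alignments each, so the number of libraries behind a list is not settled. The lists hold no counts or values per library.

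The software was scipy 1.17.1, pandas 2.3.3, numpy 2.4.6 and matplotlib 3.10.9 under Python 3.11.15. Shares have 95% Wilson intervals. Reads and background at each summit were solved from MACS2's formulas for fold (pseudocount 1) and p. This worked for 98.5% of MC-J2 and 91.4% of MC-TM3 peaks, with pileups whole within 0.1 reads for 99.9% of a held-out part of each list, and was tested on simulated data. Peaks it did not solve were left out of values on reads. Coordinates are 1-based. Regions named were the 3 strongest shared pairs, the 3 strongest J2-side and TM3-side peaks, the 2 strongest TM3-side peaks within 1 Mb of an end, the 2 pairs with the largest percentile difference in each direction, and on chromosome 1 the strongest peaks within 5 kb of an annotated gene start. Of these last, the 3 strongest of each unshared class are given, 2 with their gene. Unplaced sequence was left out of named regions. Annotation came from the readable part (1724 FUL2-J peaks) of the study's peak annotation. The comparison, the classes and the regions were chosen with earlier results of these data known.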

Additional observations from a re-analysis of the deposited data

How the results depend on the processing

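Of 62 values under other settings, 42 stayed inside the interval of the reported value and 20 did not, and no difference or correlation changed sign. Peaks are pooled over libraries, so no replicate could be left out. No paired analysis was possible because the lists carry no values per library. Thresholds and depth limit the shares, since signal below a list's threshold is not listed. The MC-J2 share of 75.6% was 74.3% where both peaks had to overlap by at least 50% and 73.0% with summits within 100 bp, and the MC-TM3 share of 30.8% was 29.8% with summits within 100 bp, 32.0% with a −log10 q of at least 10 and 34.6% with chromosome ends left out. With the MC-TM3 list cut to 4677 peaks, both shares were 49.6%, the strongest 10% of MC-J2 was shared to 92.8%, the median summit distance was 16 bp, the rank correlation was 0.422, and shared peaks lay 32.2 percentile points above J2-side and 25.5 above TM3-side peaks, against 22.9 and 33.2 with the whole list. These last differences were 14.99 for MC-J2 ranked by fold, and for MC-TM3 32.2 with a −log10 q of at least 10 and 31.5 with the ends left out. The rank correlation was 0.554 by fold. For the lists of other complexes, leaving out the ends was chosen after the data had been seen, and gave TM3-side shares of 35.4% in FUL2-J, 12.7% in FUL2-J2, 29.6% in FUL2-TM3 and 26.2% in MC-J.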

Other observations

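The same partners were compared for FUL2, as values side by side. Of the 4940 FUL2-J2 peaks, 42.1% (40.8–43.5%) were overlapped by a FUL2-TM3 peak, against 75.6% for MC-J2 in MC-TM3. Of the 10654 FUL2-TM3 peaks, 19.5% (18.8–20.3%) were overlapped by a FUL2-J2 peak, against 30.8% for MC-TM3 in MC-J2. With the chromosome ends left out, the FUL2 shares were 42.3% and 35.7%. The difference between FUL2 and MC was not tested, since each complex is 1 pooled list.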
